A study of Homo sapiens with 20 samples.

Results

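The mRNAs of 39 genes of the ESCRT machinery and of exosomes were followed through exosome and RNA granule libraries of HEK293, a line of human embryonic kidney cells. The genes were taken by symbol from a list, and each gene's value is the sum of the expected read counts of its transcripts. All 39 were found among the 62266 named genes of the files, with 525 annotated transcripts between them. They were 3 genes of ESCRT-0, 7 of ESCRT-I, 3 of ESCRT-II, 12 of ESCRT-III, 3 for the VPS4 ATPases and their cofactor, 3 around ALIX, 3 tetraspanins, 3 for flotillins and annexin A2, and 2 neutral sphingomyelinases.

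ESCRT complexes act in sequence on the endosome. ESCRT-0 gathers ubiquitin-tagged membrane proteins, ESCRT-I and ESCRT-II bend the membrane inward, ESCRT-III filaments cut the bud off, and the ATPase VPS4 takes the filaments apart. Vesicles made in this way inside an endosome are released as exosomes when the endosome fuses with the plasma membrane. ALIX with syntenin, tetraspanins, flotillins and ceramide made by neutral sphingomyelinases are further known routes into exosomes, and several of these proteins serve as exosome markers. The libraries measured the mRNAs of these genes, not the proteins.

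The cells were in a control state or in an HD-induced state that stands for Huntington disease, and the sources used here do not say what induced that state. From each state, RNA was taken from exosomes and from cytoplasmic RNA granule cores, assemblies of RNA and protein that no membrane encloses. This gave 4 groups of 5 libraries: granules of HD-induced cells (HD granules), granules of control cells (control granules), exosomes of HD-induced cells (HD exosomes) and exosomes of control cells (control exosomes). The design set both kinds of RNA side by side in both states, and all libraries came from 1 cell line.

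Reads on named genes, in mega-reads (M), came to 17.7 to 23.9 M in HD granules, 11.4 to 24.5 M in control granules, 1.33 to 7.41 M in 4 HD exosome libraries and 5.30 to 9.04 M in control exosomes. HD exosome 4 held 713 reads on named genes, 2 of them on members, so it was left out and 19 of 20 libraries were used. The members took 0.135 to 0.204% of the reads on named genes in a granule library and 0.188 to 0.279% in an exosome library used. HD exosomes 2, 3 and 5 had 25, 27 and 17 members with fewer than 100 reads. In HD granule 3, 22 of 39 members lay outside the range of the other 9 granule libraries, and in HD exosome 5, 21 lay outside that of the other exosome libraries. HD granule 4 and HD exosome 3 each had 15 such members, and the other HD libraries had 0 to 10. The same count was not made over all genes, and in any library some members would lie outside the range by chance. HTT, the gene whose repeat expansion causes Huntington disease, had a log2 fold change of -0.03 ± 0.22 (SE) between HD and control granules (edgeR's quasi-likelihood test, Benjamini-Hochberg adjusted p = 1.0) and of 0.25 ± 0.21 between HD and control exosomes (adjusted p = 0.622). The counts do not tell the expanded repeat from the normal one.

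Of the markers of the HEK293 line, LIN28B, ZIC2, SALL2 and NEFL were present and PAX2 and NEFM were near 0; the list summed to a median of 183 CPM in HD granules, 194 CPM in control granules, 335 CPM in HD exosomes and 323 CPM in control exosomes. The 8 markers of red blood cells summed to medians of 38.7 CPM in HD granules, 16.5 CPM in control granules, 462 CPM in HD exosomes (range 90.5 to 2130) and 130 CPM in control exosomes (range 77.7 to 275). The 6 platelet markers summed to medians of 1.92 CPM in HD granules, 2.67 CPM in control granules, 8.24 CPM in HD exosomes and 12.8 CPM in control exosomes, with PPBP and GP9 at 0 throughout. The 7 leukocyte markers reached 18.1 CPM in HD exosomes and stayed between 3.11 and 3.62 CPM in the other groups, and liver and serum markers stayed under 1 CPM, as medians. The keratinocyte list, held up mostly by DSP, summed to 183 CPM in HD granules, 270 CPM in control granules, 692 CPM in HD exosomes and 461 CPM in control exosomes. Red blood cell, platelet and keratinocyte sums thus moved with the contrast of granules and exosomes, as did the sum of the HEK293 line's own markers. All of these had higher medians in exosomes in both states. The part of these lists in the results below was not tested.

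Several members come as paralog pairs whose proteins do like work but whose mRNAs differ in base composition. The first 30 codons of 3 such pairs are shown to illustrate this. The pairs were chosen with earlier results of these data known. CHMP4B and CHMP4A, at 53.4 and 51.1% GC, also differed between granules and exosomes and are not shown. Whether base composition had a part in how paralogs were divided was not tested. Capitals mark G or C at the third position of a codon, and the sequences are from GENCODE release 29.
CHMP1A: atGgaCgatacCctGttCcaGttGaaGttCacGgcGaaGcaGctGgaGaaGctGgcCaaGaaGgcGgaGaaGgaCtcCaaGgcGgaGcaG
CHMP1B: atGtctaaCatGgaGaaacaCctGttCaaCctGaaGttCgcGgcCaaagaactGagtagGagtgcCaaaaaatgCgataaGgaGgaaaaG
CHMP2A: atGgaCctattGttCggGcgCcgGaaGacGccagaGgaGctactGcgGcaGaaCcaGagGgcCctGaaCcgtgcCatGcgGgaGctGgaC
CHMP2B: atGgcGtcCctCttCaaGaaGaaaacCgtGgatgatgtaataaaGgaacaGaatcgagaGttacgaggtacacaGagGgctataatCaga
VPS4A: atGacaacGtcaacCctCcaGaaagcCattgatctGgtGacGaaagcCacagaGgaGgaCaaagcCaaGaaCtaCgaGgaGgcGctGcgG
VPS4B: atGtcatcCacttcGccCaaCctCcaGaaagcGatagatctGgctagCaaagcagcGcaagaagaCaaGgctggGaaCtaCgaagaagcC
At the ends of these 30 codons, 29 bases were G or C in CHMP1A and 20 in CHMP1B, 26 in CHMP2A and 15 in CHMP2B, and 22 in VPS4A and 17 in VPS4B. Over the whole coding sequence the share was 86.7% in CHMP1A and 72.4% in CHMP1B, 68.9% in CHMP2A and 34.7% in CHMP2B, and 73.2% in VPS4A and 34.7% in VPS4B.

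In control cells, most of the ESCRT and exosome mRNAs were a smaller part of the reads on named genes in granules than in exosomes. Of 38 members tested, 23 were lower in granules, 3 were higher (CHMP5, VPS37A and VPS36) and 12 were not called. Lower members made up 60.5% of those tested, against 32.5% of all 14777 genes tested, and higher members 7.89%, against 30%. In either direction 68.4% of the members and 62.4% of all genes tested were called, which is close to the background. The median log2 fold change of granules over exosomes was -0.78 over the members, -0.02 over all genes tested and -0.10 over protein-coding genes tested, and 14 of the 23 lower members fell by at least 1 on the log2 scale. A gene was called at a Benjamini-Hochberg adjusted p under 0.05 in edgeR's quasi-likelihood test over all genes, which is the test behind each adjusted p given here. Levels are CPM, reads per mega-read on named genes of a library after scaling by trimmed means of M values (TMM). They are shares of the reads on named genes. A smaller number of copies and a larger amount of other RNA thus cannot be told apart. The p-values measure the spread between libraries that the design calls biological replicates.

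**Figure D1:**
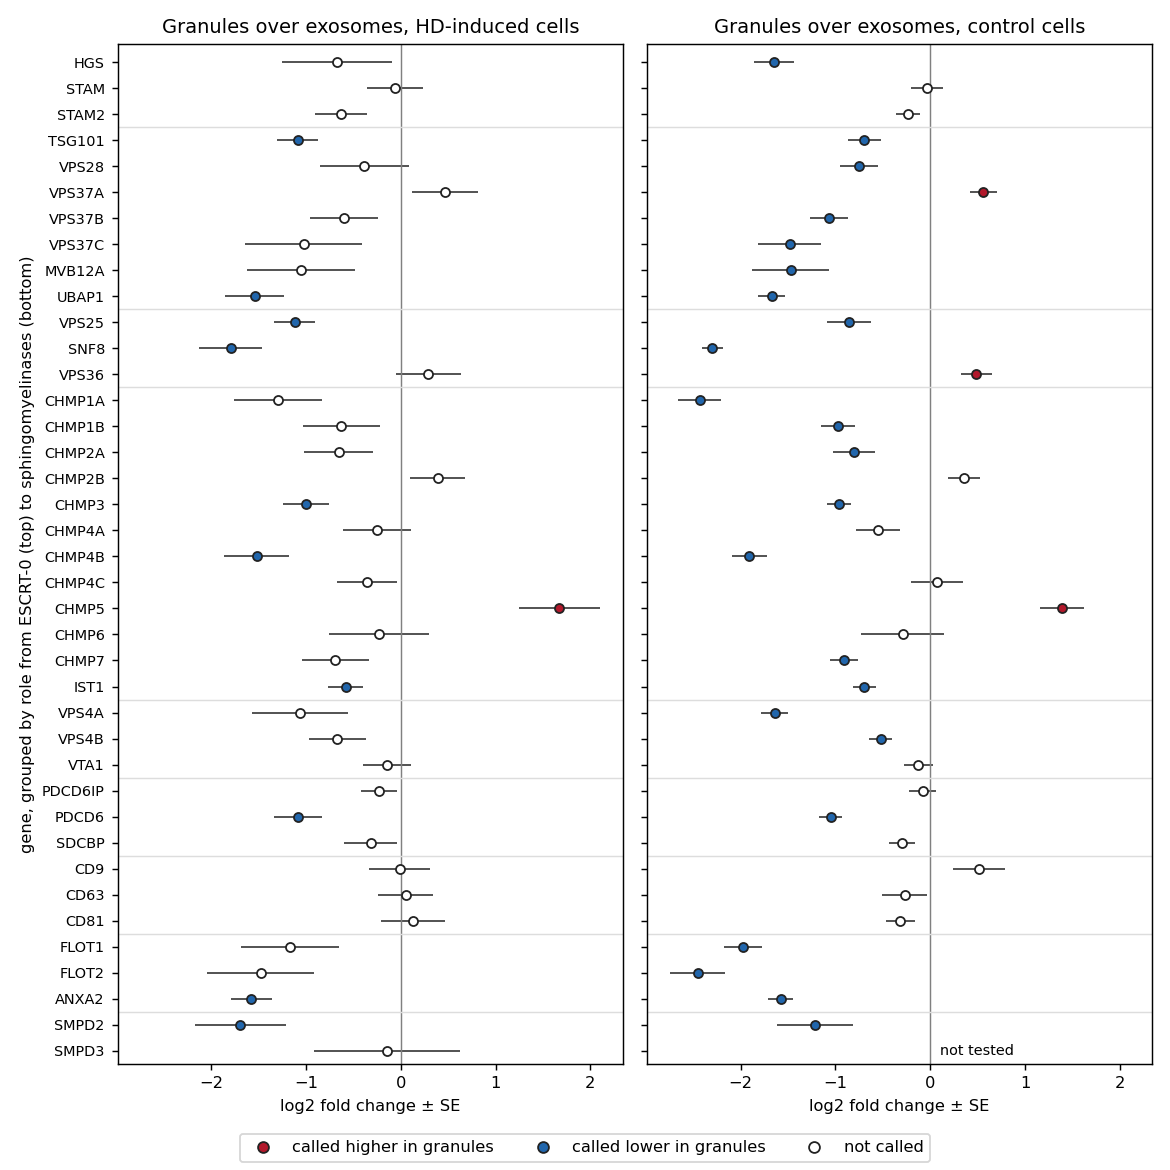
Log2 fold change of granules over exosomes (x axis, points, with the standard error as bars) for the 39 genes (y axis, by role), in HD-induced cells on the left and control cells on the right. Filled points passed an adjusted p of 0.05: 1 higher and 10 lower in HD-induced cells, 3 higher and 23 lower in control cells.

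Among the ESCRT-0 genes, HGS, which binds ubiquitin and brings its partner STAM to the endosome, fell in control granules by 1.65 ± 0.21 on the log2 scale (SE, adjusted p = 3.75e-05). Its levels were 93.7, 71, 64, 51.9 and 46.2 CPM in control granules, against 265, 174, 170.4, 212 and 157 CPM in control exosomes, with no overlap. Its partners STAM and STAM2 had log2 fold changes of -0.03 ± 0.17 and -0.24 ± 0.13 and were not called.

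Of the 7 ESCRT-I genes, 6 were lower in control granules and VPS37A was higher. UBAP1, a subunit of an ESCRT-I form that works on endosomes, at chr9:34179005-34252523 in GRCh38.p14, had 18.2, 16.4, 15.1, 12.6 and 15 CPM in control granules, against 43.6, 43.5, 58, 46.7 and 43.4 CPM in control exosomes. The groups were far apart, and the log2 fold change was -1.67 ± 0.15 (adjusted p = 1.74e-06). TSG101, which binds ubiquitin and ALIX and is a common exosome marker, had 25.4, 37.4, 30.4, 42.6 and 39.6 CPM in control granules, against 40.1, 68.7, 46.8, 55.8 and 60.0 CPM in control exosomes. The TSG101 groups overlapped at their edges, and the log2 fold change was -0.69 ± 0.18 (adjusted p = 0.00438). The other lower members were the core subunit VPS28, the subunits VPS37B and VPS37C, and MVB12A, with log2 fold changes between -0.75 and -1.48. VPS37A, another form of the VPS37 subunit, had 43.2, 45.4, 53.9, 50.3 and 54.2 CPM in control granules, against 22.8, 38.9, 31.5, 29.7 and 37 CPM in control exosomes. No granule value of VPS37A was below an exosome value, and the log2 fold change was 0.56 ± 0.15 (adjusted p = 0.00507). Once each library's trend with GC content was removed, it came to 0.25 and VPS37A was not called (adjusted p = 0.0660).

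The 3 ESCRT-II genes code for 1 complex and did not move together. SNF8, which holds the complex together, at chr17:48929316-48944842, had the smallest adjusted p of all members. It had 32.9, 28.3, 31.5, 29.4 and 26.5 CPM in control granules, against 122, 142, 132, 151 and 154 CPM in control exosomes, a log2 fold change of -2.30 ± 0.11 (adjusted p = 4.15e-08). Each control exosome library held several times as much SNF8 as any control granule library. VPS25, the arm of the complex that recruits ESCRT-III, had 30.8, 63, 39.6, 80.3 and 39.7 CPM in control granules, against 89.7, 94.7, 93, 82.4 and 79.5 CPM in control exosomes. VPS25 was lower by 0.86 ± 0.23 on the log2 scale (adjusted p = 0.00700), with 1 granule library reaching into the exosome range. VPS36, the subunit that binds ubiquitin and membrane lipid, had 54.4, 55.6, 59, 54.8 and 60.4 CPM in control granules, against 28.5, 49.8, 37.3, 28.4 and 49.9 CPM in control exosomes. VPS36 was higher by 0.49 ± 0.17 (adjusted p = 0.0222) without overlap, but its log2 fold change turned to -0.38 with the GC trend removed. VPS36 was also not called without control exosome 1, 3 or 4 (adjusted p = 0.0511 to 0.0620). By TPM, which corrects for length, SNF8 made up 36.2 ± 6.52% (SD, n = 5) of the ESCRT-II sum in control granules and 70.1 ± 2.96% (n = 5) in control exosomes. The sum takes in transcripts of all classes. A median of 62.4% of SNF8 reads in control granules and 73.3% in control exosomes lay outside protein-coding transcripts, and no share on coding transcripts alone was computed. The share of VPS36 was 18.4 ± 2.39% in control granules and 4.50 ± 1.02% in control exosomes.

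**Figure D2:**
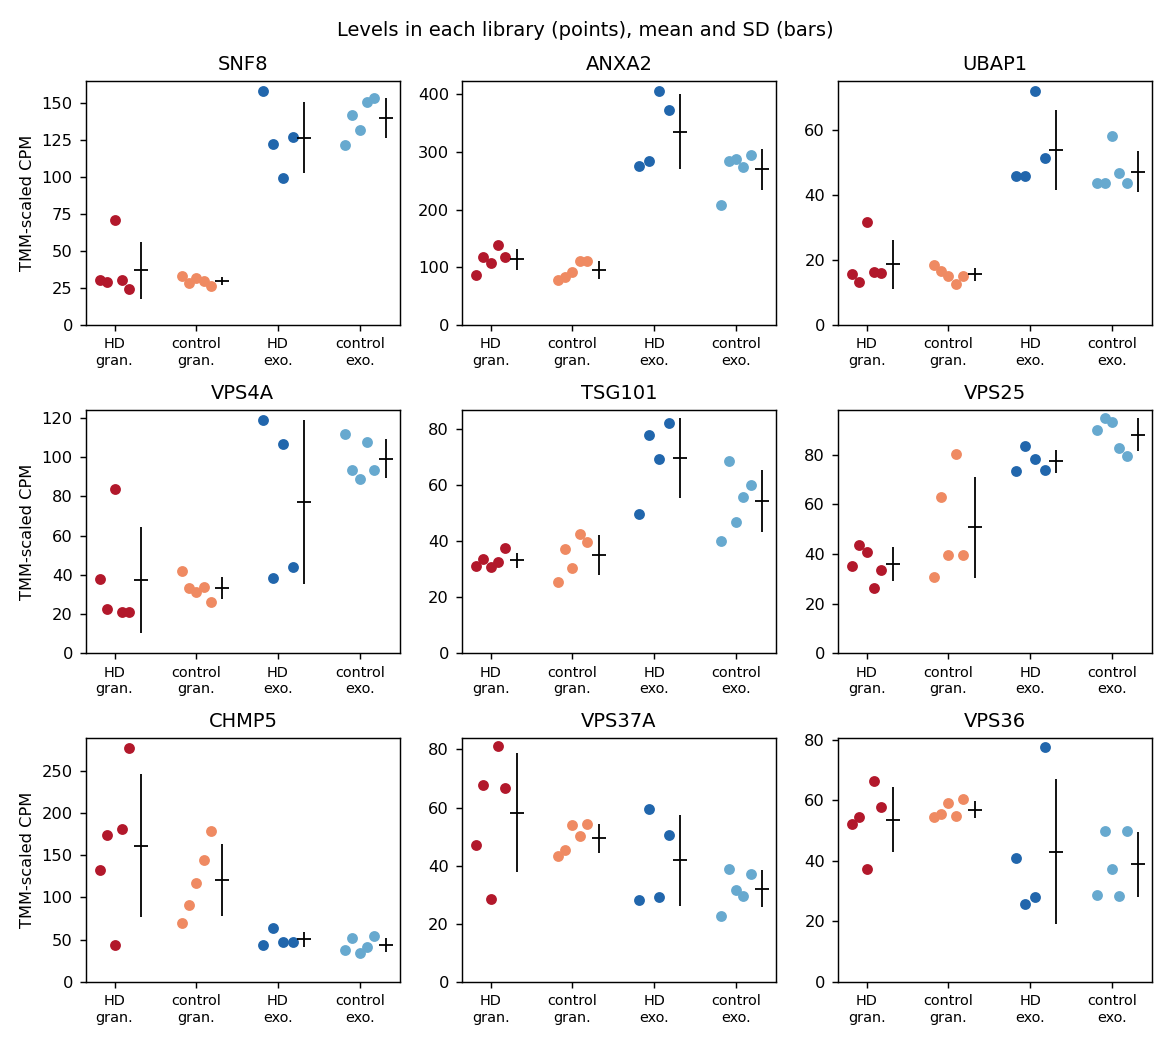
Levels of 9 members in each library (y axis, TMM-scaled CPM from 0, 1 point a library) in HD granules, control granules, HD exosomes and control exosomes (x axis), with mean and SD beside the points. SNF8 lay between 26.5 and 32.9 CPM in control granules and between 122 and 154 CPM in control exosomes, and HD granule 3 is the high point among HD granules for SNF8, UBAP1 and VPS4A and the low point for CHMP5, VPS37A and VPS36.

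Of the 12 ESCRT-III genes, 7 were lower in control granules, CHMP5 was higher and 4 were not called. CHMP5, which binds the VPS4 cofactor encoded by VTA1, at chr9:33265049-33282070, had 69.7, 91.6, 118, 144 and 179 CPM in control granules, against 37.6, 52.1, 33.7, 41.1 and 53.7 CPM in control exosomes. Every granule library was above every exosome library, and the log2 fold change was 1.39 ± 0.23 (adjusted p = 0.000249). By TPM over transcripts of all classes, CHMP5 was 33.4 ± 6.37% (SD, n = 5) of the ESCRT-III sum in control granules and 13.2 ± 1.41% (n = 5) in control exosomes. CHMP4B, the main filament-forming subunit, went the other way, at 2.80 ± 0.503% in control granules and 9.12 ± 1.11% in control exosomes. The other lower members were CHMP1A and CHMP1B, which act late with IST1, together with CHMP2A, CHMP3, CHMP7 and IST1 itself. Their log2 fold changes ran from -0.69 ± 0.12 for IST1 to -2.43 ± 0.23 for CHMP1A. CHMP2B, CHMP4A, CHMP4C and CHMP6 were not called, with log2 fold changes of 0.36 ± 0.17, -0.56 ± 0.23, 0.08 ± 0.27 and -0.29 ± 0.44.

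Both VPS4 genes fell in control granules and their cofactor gene did not pass the test. VPS4A, at chr16:69311350-69326939, had 42, 33.1, 31.5, 33.7 and 26.3 CPM in control granules, against 112, 93.6, 89.1, 108 and 93.6 CPM in control exosomes, a log2 fold change of -1.64 ± 0.14 (adjusted p = 1.87e-06). Its paralog VPS4B had 31, 27.8, 33, 33.3 and 40.9 CPM in control granules, against 43.7, 50.6, 42.3, 40.2 and 50.6 CPM in control exosomes, a log2 fold change of -0.52 ± 0.13 (adjusted p = 0.00316). The VPS4A groups were well apart and those of VPS4B met at their edges. VPS4B was not called without control granule 2 or 3 (adjusted p = 0.0517 and 0.0537). VTA1, whose product stimulates VPS4, had a log2 fold change of -0.13 ± 0.15.

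The genes most often used to mark exosomes as proteins gave a mixed picture as mRNAs. PDCD6IP, which codes for ALIX, and SDCBP, which codes for the syntenin that links ALIX to syndecans, had log2 fold changes of -0.08 ± 0.14 and -0.30 ± 0.14 in control cells and were not called. The interval of PDCD6IP (95%) ran from -0.35 to 0.19. PDCD6, which codes for the ALIX-binding calcium sensor ALG-2, fell by 1.05 ± 0.12 on the log2 scale (adjusted p = 1.7e-05). None of the tetraspanin mRNAs was called: CD9 had a log2 fold change of 0.51 ± 0.28, CD63 of -0.27 ± 0.24 and CD81 of -0.31 ± 0.15. CD81 came to 0.43 with the GC trend removed and was then called higher. It was called lower with voom, on protein-coding transcripts only and without control exosome 2. CD63 was called lower with voom, and CD9 was called higher with DESeq2 and without control granule 3.

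FLOT1, FLOT2 and ANXA2, whose products sit on the inner face of membranes, all fell in control granules. ANXA2, which codes for a membrane-binding annexin and lies at chr15:60347151-60397986, had 77, 83.4, 91.9, 109.9 and 111 CPM in control granules, against 207, 284, 288, 275 and 295 CPM in control exosomes. No libraries overlapped, and the log2 fold change was -1.58 ± 0.14 (adjusted p = 1.6e-06). By TPM over transcripts of all classes, ANXA2 was the most abundant member in control exosomes, at 81.0 TPM on average, ahead of SNF8 at 71.6 and SDCBP at 40.9. In control granules the order by mean TPM was SDCBP at 25.8, ANXA2 at 23.4 and CHMP5 at 22.4. FLOT1 fell by 1.98 ± 0.20 and FLOT2 by 2.45 ± 0.29 on the log2 scale.

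Of the neutral sphingomyelinases, which release ceramide from sphingomyelin, SMPD2 fell by 1.22 ± 0.40 on the log2 scale (adjusted p = 0.0187). SMPD3, whose enzyme is known for ceramide-driven exosome release, was too low to be tested in control cells, at 0.919, 1.13, 0.930, 1.06 and 0.290 CPM in control granules, against 0.855, 0.659, 2.04, 0.179 and 0.614 CPM in control exosomes. These values stand for 3.90 to 25.8 reads a library in control granules and 1.34 to 13.0 in control exosomes.

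Paralogs with like roles differed in size of change, and the member with more G and C had the lower log2 fold change in all 8 pairs examined but STAM with STAM2. The differences between paralogs were not tested. CHMP1A, at 61.5% GC, had 11.3, 10.3, 5.83, 6.79 and 6.67 CPM in control granules, against 48.6, 36.7, 34.8, 52.9 and 37.4 CPM in control exosomes. CHMP1B, at 41.5% GC, had 8.04, 8.75, 7.56, 9.37 and 11.8 CPM in control granules, against 12.1, 19.6, 17.9, 18.2 and 17.6 CPM in control exosomes. Both fell, by 2.43 and 0.97 on the log2 scale. CHMP2A, at 55.9% GC, had 20.5, 13, 12.7, 17.6 and 13.9 CPM in control granules, against 21.2, 31.3, 26.2, 16.3 and 35.1 CPM in control exosomes. CHMP2B, at 38.4% GC, had 46.6, 78.7, 64.7, 77.4 and 86 CPM in control granules, against 40.1, 54.7, 51.1, 53.1 and 64 CPM in control exosomes. CHMP2A fell by 0.80 while CHMP2B was not called. CHMP2B was called higher in 7 of the alternatives described at the end, and lower with the GC trend removed. CHMP4B, at 53.4% GC, had 9.34, 10.2, 8.0, 12.4 and 9.07 CPM in control granules, against 25.4, 41.2, 29.8, 38.8 and 41.9 CPM in control exosomes. CHMP4A, at 51.1% GC, had 6.28, 5.37, 7.50, 10.3 and 11.2 CPM in control granules, against 9.19, 10.9, 14.9, 11.1 and 11.1 CPM in control exosomes. CHMP4B fell by 1.91 and CHMP4A, with a log2 fold change of -0.56, was not called.

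A ratio of paralogs within a library does not depend on library scaling. The log2 ratio of CHMP1A to CHMP1B by TPM was 0.64, 0.07, 0.43, -0.37 and -0.62 in control granules, against 2.29, 1.16, 0.92, 1.91 and 1.22 in control exosomes, without overlap. That of CHMP4B to CHMP4A was -0.33, -0.08, -0.83, -0.60 and -1.14 in control granules, against 1.07, 1.10, 0.54, 1.43 and 1.49 in control exosomes, also without overlap. In HD-induced cells the log2 ratio of CHMP4B to CHMP4A was -0.77, -0.70, 0.26, -1.20 and -1.05 in HD granules, against 0.80, 1.70, 1.64 and 1.04 in HD exosomes, again without overlap. That of CHMP1A to CHMP1B ran from -0.56 to 1.33 in HD granules, against 0.35 to 2.09 in HD exosomes, so these groups overlapped. Some of these ratios rest on few reads: CHMP4A had 13 and 11 in HD exosomes 2 and 3, and CHMP1B had 7.56 in HD exosome 2. Of the 8 pairs examined by TPM, 6 had no overlap in control cells, and 2 of these had none in HD-induced cells, CHMP4B with CHMP4A and STAM with STAM2. Pairs of other genes were not counted, so whether paralogs differ from them in this was not tested. The groups of CHMP1A with CHMP1B, CHMP4B with CHMP4C, VPS4A with VPS4B and VPS37C with VPS37A were apart in control cells and overlapped in HD-induced cells. The ratio of CHMP2A to CHMP2B had overlapping groups in both states. The split of STAM and STAM2 was smaller by counts than by TPM. Their log2 ratio by TPM differed between granules and exosomes by 0.92 in control cells and 1.04 in HD-induced cells. From the count fits, their log2 fold changes differed by 0.20 and 0.57, and neither gene was called in either state.

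Over the 38 members tested, the control log2 fold change ran against GC content with Spearman's rho of -0.64, as it did over 13093 protein-coding genes, with rho of -0.51. These are descriptions across genes that share the same libraries. With transcript length, rho was 0.09 over the members. An offset that removed each library's own trend with GC content brought rho over the members to 0.10. The offset takes out any difference linked to GC content, whatever its source. Of the 23 lower members, 19 were still called lower, and the log2 fold changes of SNF8, ANXA2 and UBAP1 were -1.87, -1.53 and -1.58. CHMP2A, SMPD2, VPS25 and VPS28 were no longer called, at -0.24 for CHMP2A (adjusted p = 0.374) and -0.02 for VPS28 (adjusted p = 0.910). CHMP2B, PDCD6IP, SDCBP, STAM, STAM2, VPS36 and VTA1 were called lower instead, and CHMP5 at 0.47 (adjusted p = 0.0142) and CD81 at 0.43 were the members called higher. The split within pairs closed for CHMP1A and CHMP1B (-1.69 and -1.66) and for VPS4A and VPS4B (-1.19 and -1.05), but not for CHMP4B and CHMP4A (-1.51 and -0.37). For CHMP2A and CHMP2B (-0.24 and -0.62) it turned round, and for STAM and STAM2 (-0.55 and -1.42) it widened. For VPS37C and VPS37A (-0.77 and 0.25) and for CHMP4B and CHMP4C (-1.51 and -0.26) it was smaller but did not close.

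**Figure D3:**
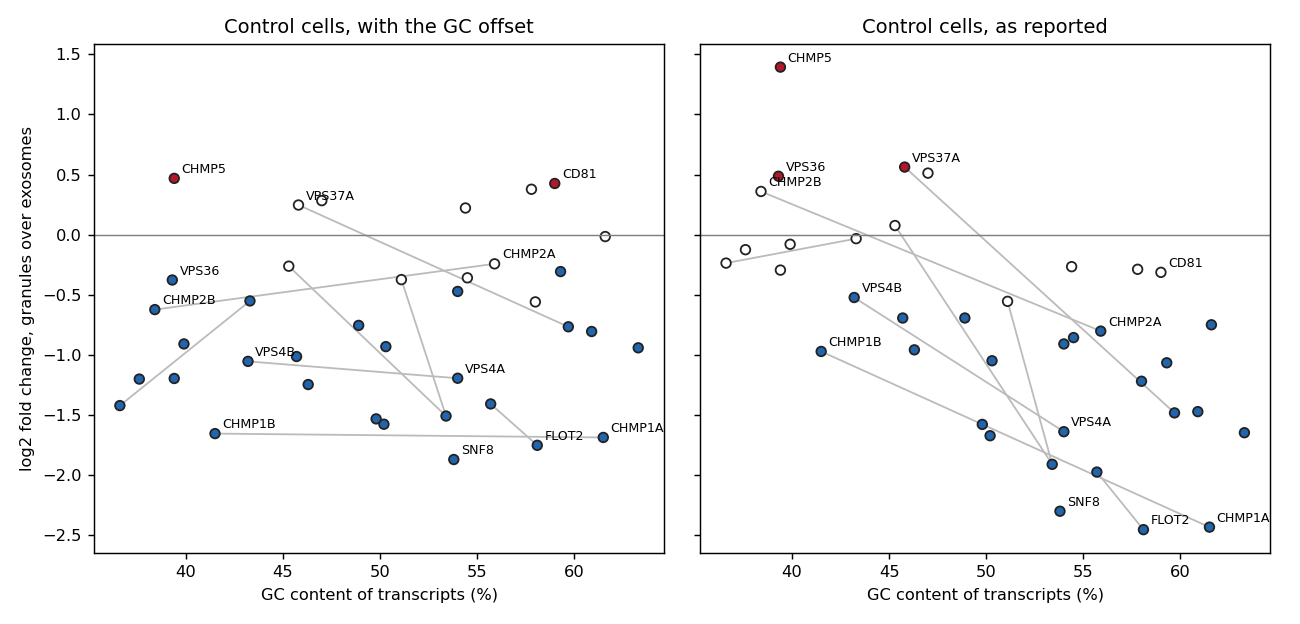
GC content of transcripts (x axis, median over protein-coding transcripts of a gene, %) against the log2 fold change of control granules over control exosomes (y axis) for 38 members, with the GC offset on the left and as reported on the right. Lines join paralog pairs and filled points passed an adjusted p of 0.05 (red higher, blue lower): rho is 0.10 on the left and -0.64 on the right, and the lines of CHMP1A with CHMP1B and of VPS4A with VPS4B are nearly level on the left.

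The kinds of transcript behind the members' reads also differed. Among 32 members with transcripts of both kinds and at least 50 reads in each control library, the share of reads outside protein-coding transcripts was higher in all control granules than in all control exosomes for 16, and lower for 1, SNF8. Over 8274 protein-coding genes that met the same terms, the shares without overlap were 30% higher and 2.53% lower. VPS28 had 66, 77.5, 73.5, 77.5 and 81.5% of its reads on such transcripts in control granules, against 20.2, 8.31, 14.3, 11.7 and 29.2% in control exosomes. ANXA2 had 24.8, 19.6, 24.8, 20.4 and 19.9% in control granules, against 3.39, 0.870, 1.27, 1.12 and 1.39% in control exosomes. In both genes most of this difference was on transcripts annotated as retaining an intron, with medians for VPS28 of 57.1% in control granules and 9.25% in control exosomes. SNF8 had 50.9, 62.4, 68.5, 63.4 and 57.9% in control granules, against 74.9, 73.3, 73.6, 72.3 and 71.4% in control exosomes, so its reads lay largely outside protein-coding transcripts in both. The files divide reads between overlapping transcripts by estimate, so these shares carry an error that the files do not give. Counted on protein-coding transcripts only, 21 of the 23 lower members were still called lower in control granules. TSG101 at -0.43 (adjusted p = 0.0612) and CHMP7 at -0.81 (adjusted p = 0.194) were not, and SNF8 came to -1.55 and CHMP5 to 1.62.

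**Figure D4:**
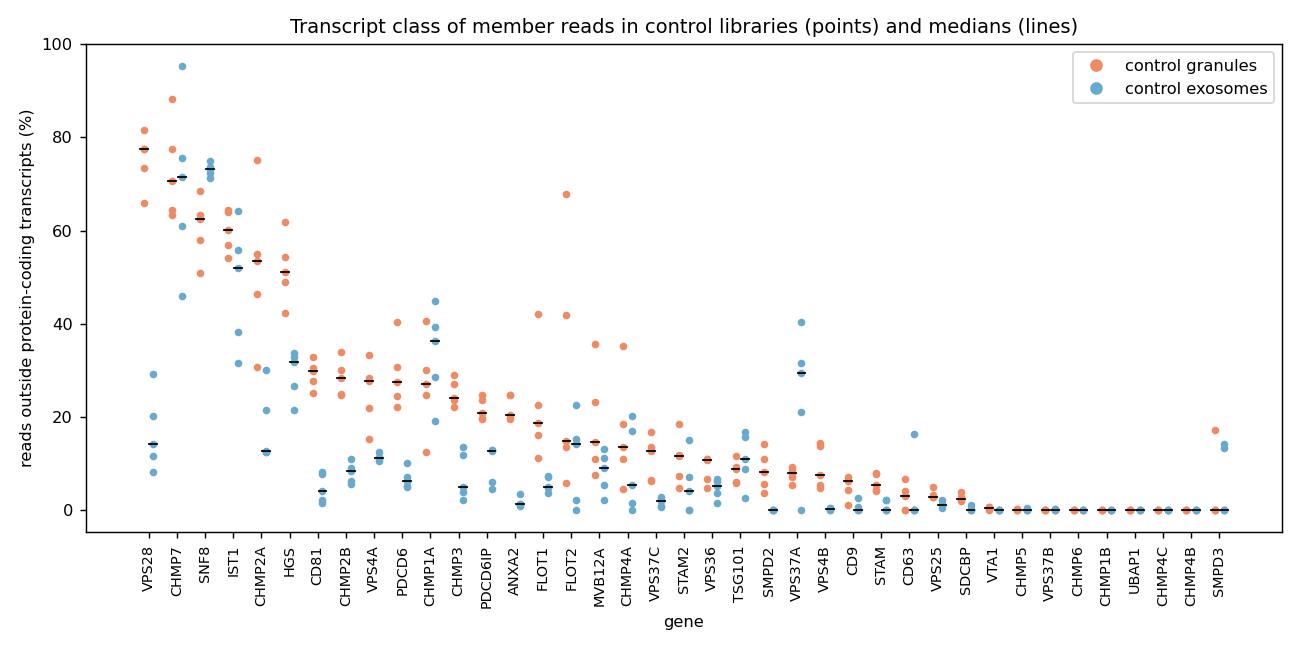
Percentage of a member's reads on transcripts not annotated as protein-coding (y axis) in each control granule library (orange points, left of each pair) and control exosome library (blue points, right), with medians as lines, for the 39 genes (x axis, ordered by the control granule median). VPS28 stood at a median of 77.5% in control granules and 14.3% in control exosomes, and CHMP2A at 53.4% in control granules and 12.7% in control exosomes.

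In HD-induced cells, the same comparison called fewer members. Of 39 tested, 10 were lower in HD granules than in HD exosomes and 1 was higher. Lower members were 25.6% of those tested, against 7.85% of all 16172 genes tested, and the higher member 2.56%, against 10.2%. In either direction 28.2% of the members and 18% of all genes were called. The median log2 fold change was -0.63 over the members and 0.11 over all genes tested. The 10 lower members were TSG101, UBAP1, VPS25, SNF8, CHMP3, CHMP4B, IST1, PDCD6, ANXA2 and SMPD2, and all of them were also lower in control cells, where they were 43.5% of the lower members. CHMP5 was the 1 higher member in HD-induced cells and was higher in control cells too. Its call in HD-induced cells was near the threshold: it was lost in 6 of the 9 fits that left out 1 library (HD granule 2, 4 or 5, or HD exosome 1, 3 or 5), with log2 fold changes of 1.39 to 1.66 and adjusted p of 0.0515 to 0.0642. IST1 was lost in 8 of these fits, all but that without HD granule 3, and SMPD2 in 7, all but those without HD granule 3 or HD exosome 5. CHMP3 was lost without HD granule 1. The comparisons in HD-induced and control cells share no libraries. Across the 38 members tested in both, their log2 fold changes had Spearman's rho of 0.89, beside 0.86 over 14635 genes, and 34 of 38 had the same sign.

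SNF8 had 30.4, 28.8, 70.9, 30.4 and 24.1 CPM in HD granules, against 158, 122, 99.7 and 127 CPM in HD exosomes 1, 2, 3 and 5, a log2 fold change of -1.79 ± 0.33 (adjusted p = 0.00673). ANXA2 had 86.7, 117, 108, 138 and 118 CPM in HD granules, against 276, 284, 407 and 373 CPM in HD exosomes, a log2 fold change of -1.58 ± 0.22 (adjusted p = 0.00224). Neither gene had overlapping groups, although HD granule 3 held more SNF8 than the other HD granules. TSG101 had 31.1, 33.6, 30.7, 32.5 and 37.5 CPM in HD granules, against 49.9, 77.8, 69.3 and 82 CPM in HD exosomes, a log2 fold change of -1.09 ± 0.22 (adjusted p = 0.00878). VPS25 had 35.3, 43.6, 40.9, 26.2 and 33.3 CPM in HD granules, against 73.5, 83.5, 78.3 and 73.8 CPM in HD exosomes, a log2 fold change of -1.12 ± 0.22 (adjusted p = 0.00776). TSG101 and VPS25 were lower in every HD granule than in any HD exosome used. UBAP1 had 15.6, 13.2, 31.7, 16.3 and 16.1 CPM in HD granules, against 45.9, 45.8, 71.9 and 51.1 CPM in HD exosomes, a log2 fold change of -1.54 ± 0.31 (adjusted p = 0.00915). CHMP5 had 133, 174, 43.2, 181 and 277 CPM in HD granules, against 44.1, 63.4, 46.6 and 46.7 CPM in HD exosomes, a log2 fold change of 1.67 ± 0.43 (adjusted p = 0.0229). HD granule 3 alone kept the CHMP5 groups from separating.

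The HD count moved with single libraries. Without HD granule 1, 2, 4 or 5 or HD exosome 1, 1464 to 1757 genes and 8 members were called. Without HD granule 3, 19 members were lower and 1 higher in HD granules, and 5561 genes in all were called, against 2918 with it. SNF8 then came to -2.20 ± 0.21 and CHMP5 to 1.90 ± 0.25. In HD granule 3, 15 members lay above and 7 below the range of the other granule libraries, and 14 of the 23 members that were lower in control granules were nearer the control exosome mean than the control granule mean. In HD exosome 5, 10 members lay above and 11 below the range of the other exosome libraries, and 12 of those 23 members were nearer the control exosome mean. Whether the members stood out from other genes in these libraries was not tested. Across the 39 members, the deviation of HD granule 3 from control granules ran with GC content with rho of 0.76, beside -0.80 for HD granule 5 and 0.35 for HD granule 1. VPS4A had 37.9, 22.4, 83.7, 21 and 21.1 CPM in HD granules, against 119, 38.3, 107 and 43.9 CPM in HD exosomes. Here HD granule 3 was as high as an exosome library and HD exosomes 2 and 5 were close to the granules, and the log2 fold change of -1.06 ± 0.50 was not called (adjusted p = 0.160).

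Members called in control cells and not in HD-induced cells often had large errors in the HD libraries. CHMP1A had a log2 fold change of -1.30 ± 0.46 in HD-induced cells (adjusted p = 0.0732) and FLOT2 of -1.48 ± 0.56 (adjusted p = 0.0888). No member passed the test of the difference between the 2 states, given below. SNF8 counted on protein-coding transcripts only came to -0.91 ± 0.45 in HD-induced cells and was not called (adjusted p = 0.185). The transcript classes of HD libraries had the same order for VPS28, with 67.9, 89.7, 52.5, 85.6 and 74.3% outside protein-coding transcripts in HD granules, against 13, 25.3, 46.6 and 0% in HD exosomes. The groups of VPS28 did not overlap. Its shares in HD exosomes 2, 3 and 5 rest on only 14, 29 and 25 reads. The minimum of reads set for control cells was not applied to HD libraries. Of the other members with a higher share in control granules, VTA1, CHMP2A, CHMP3, VPS4B, SDCBP and ANXA2 were also apart in HD-induced cells. HGS, STAM, VPS25, CHMP2B, VPS4A, PDCD6IP, PDCD6, CD81 and FLOT1 overlapped there. HGS ran from 32.4 to 81.5% in HD granules and from 9.34 to 93.4% in HD exosomes. Reads were also few for CHMP2A, at 49 and 18 in HD exosomes 2 and 3, and CHMP3, at 46.6 in HD exosome 2. STAM, which overlapped, had 42.1 reads in HD exosome 3. The gap was narrow for CHMP3, at 10.5% in HD granule 3 against 10.2% in HD exosome 5. For ANXA2 it was 9.53% in HD granule 3 against 8.95% in HD exosome 3. VTA1 ran from 0.281 to 1.14% in HD granules, against 0% in HD exosomes. No such count over all genes was made in HD-induced cells.

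The HD-induced state itself gave no call among the members. Between HD and control granules, 0 of 39 members were called, beside 0% of 16750 genes, and none had an unadjusted p under 0.05 in edgeR's quasi-likelihood test, which 214 of all genes had. DESeq2 called 4 genes and voom 5, with no member among them. The members' log2 fold changes ran from -0.62 ± 0.52 for SMPD2 to 0.48 ± 0.46 for HGS, with a median of 0.06 and standard errors of 0.13 to 0.60. HGS had 79.8, 45.2, 230.4, 53.2 and 45.9 CPM in HD granules, against 93.7, 71, 64, 51.9 and 46.2 CPM in control granules. The mean of HGS was raised by HD granule 3, and the other 4 HD granules were within or just below the control range.

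Between HD and control exosomes, 0 of 38 members were called, beside 0.00747% of 13391 genes, which was 1 gene. DESeq2 called 10 genes, none of them a member. Unadjusted p-values under 0.05 were found for 2 members and for 973 genes in all. STAM2 had 42.1, 59.6, 53.7 and 81.4 CPM in HD exosomes, against 34, 43.4, 36.3, 39.3 and 43 CPM in control exosomes, a log2 fold change of 0.61 ± 0.20 (adjusted p = 0.585). CHMP1A had 40.7, 14.4, 25.2 and 13.9 CPM in HD exosomes, against 48.6, 36.7, 34.8, 52.9 and 37.4 CPM in control exosomes, a log2 fold change of -0.77 ± 0.32 (adjusted p = 0.585). Both genes had overlapping groups. The members' log2 fold changes ran against GC content with rho of -0.82 over 38 members, beside -0.63 over 12457 protein-coding genes. HD exosomes 2 and 5 had the strongest such relations, with rho of -0.59 and -0.75 for their deviations from control exosomes. Standard errors ran from 0.14 to 0.43 over the members, and the 95% interval of CD9, for example, ran from -0.42 to 0.57.

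The test of whether the HD effect differed between granules and exosomes called 0 of 39 members, beside 0.0117% of 17027 genes, which was 2 genes. CHMP1A had the lowest unadjusted p of the members, with a difference of 1.07 ± 0.50 on the log2 scale (adjusted p = 0.871), and was the 1 member with an unadjusted p under 0.05 beside 822 of all genes. DESeq2 called 21 genes and no member.

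**Figure D5:**
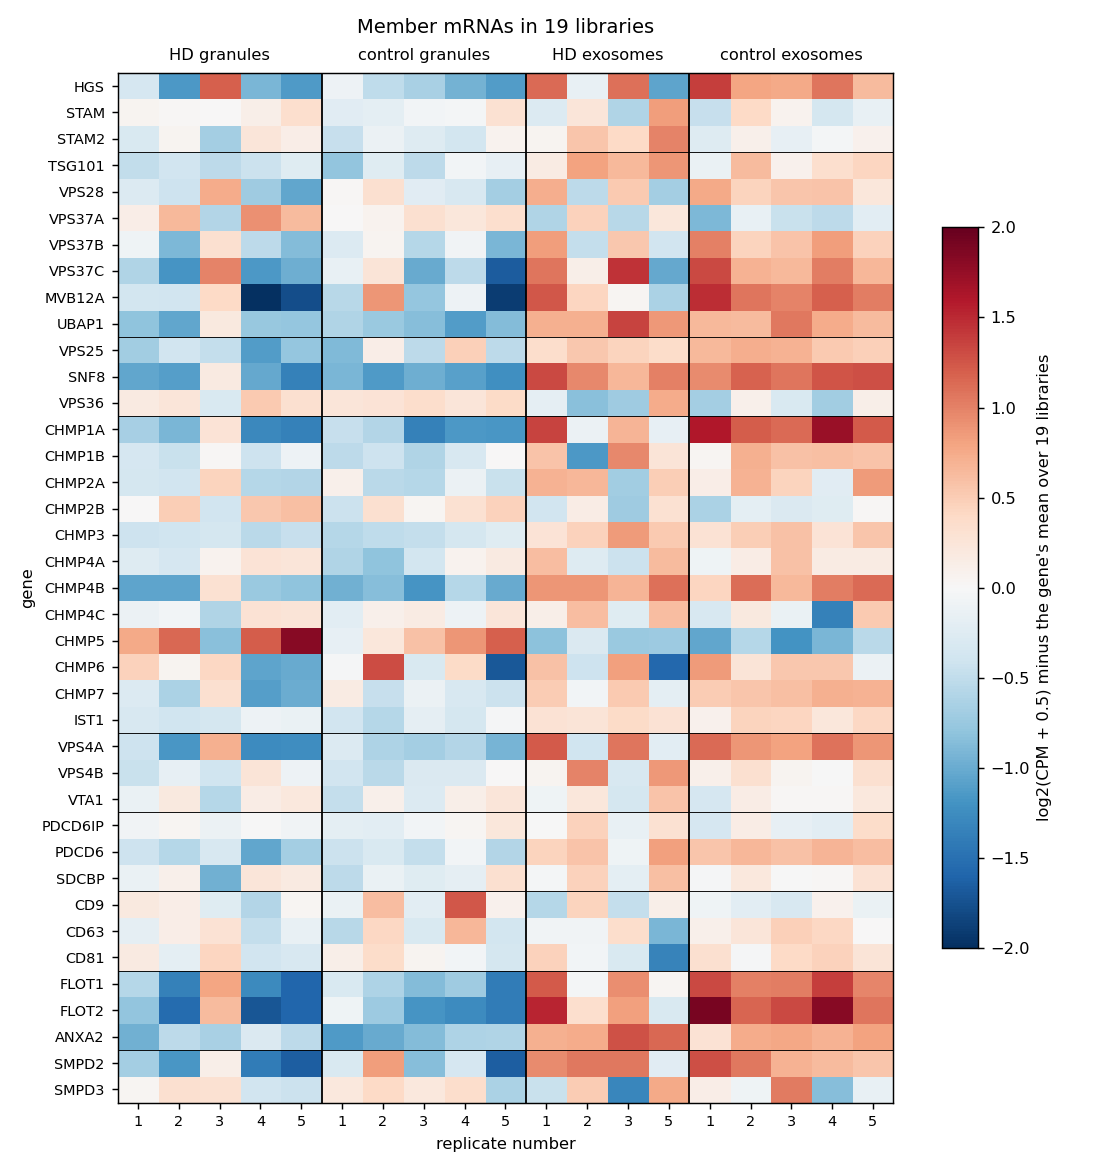
Log2(CPM + 0.5) of the 39 genes (rows, by role) in 19 libraries (columns, by group and replicate number) minus the gene's mean over the libraries, red above and blue below that mean. SNF8, ANXA2, CHMP4B and UBAP1 are blue in the granule columns, with HD granule 3 as the exception for SNF8, CHMP4B and UBAP1, and red in the exosome columns. CHMP5 is mostly the reverse, and HD granule 3 is unlike the other HD granules in HGS, VPS4A, FLOT1, FLOT2 and CHMP5.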

How the data were processed

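The deposited files, 1 per library, hold for each transcript an expected count, the estimated and not always whole number of reads, and a TPM value, per the file headers. Reads of 100 bases from stranded total RNA libraries were processed with Trimmomatic, cutadapt, FastQC and Salmon against GRCh38.p14, per the submitters' processing notes. The sources used here do not give tool versions, the annotation release or the strand setting. The authors' TPM values sum to the same total in every library and were summed per gene to compare genes or shares. Of 921552 entries, 251955 were named transcripts, and the others entered no test. They took 24.9 to 59.2% of the reads of granule libraries and 29.3 to 86.6% of those of the exosome libraries used, the last in HD exosome 2.

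Each gene's count is the rounded sum of the expected counts of its transcripts. Libraries under 100000 reads on named genes were left out (HD exosome 4). Genes were kept by filterByExpr, scaled by TMM and tested in edgeR 4.0.16 (R 4.3.3) by its robust quasi-likelihood test, with Benjamini-Hochberg adjustment over all genes tested and a call at an adjusted p under 0.05. Each comparison was fitted on its own 2 groups, and the difference of HD effects on all 4. The standard error is the log2 fold change divided by the square root of F. The steps were also run on simulated counts with known changes. These held no GC trend and no library unlike the rest, so that run could not test the effect of either. Values in every library are given for up to 4 called members per direction with the smallest adjusted p in each comparison, for the paralogs described, and for members near 0. HGS, STAM2 and CHMP1A were given in the same way after their values were seen. The members and gene lists were chosen with earlier results of these data known, so no list was tested. GC content is the median over a gene's protein-coding transcripts in GENCODE release 29. Positions are from RefSeq on GRCh38.p14, counted from 1.

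Alternatives were RLE and upper-quartile size factors, no count filter, DESeq2 1.42.0, voom with quality weights in limma 3.58.1, a replicate block, an offset for each library's GC trend (loess, span 0.3), both together, protein-coding transcripts only, HD exosome 4 kept, each library left out in turn, and HD exosome 2 with HD granule 3 left out. Replicate numbers are shared between groups, but deviations of libraries with the same number correlated between -0.12 and 0.41 and not always above 0.1, so they were not taken as pairs.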

Additional observations from a re-analysis of the deposited data

Results flagged for a closer look

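In groups of 4 or 5 libraries, 16 of 156 member and group combinations had 1 library far from the others relative to the range of its group. Chance alone gives about 1 in 20 for independent, normally spread values. The members share the same libraries, so the combinations are not independent and an excess over chance cannot be read from the count. Of the 16, 10 were in HD granule 3, each above the other HD granules: HGS at 230.4 CPM, VPS28 at 21.9, VPS37C at 24.5, UBAP1 at 31.7, SNF8 at 70.9, CHMP2A at 26.2, CHMP4B at 23.2, VPS4A at 83.7, FLOT1 at 70.6 and FLOT2 at 39.2 CPM. Control exosome 1 was low for CHMP1B, at 12.1 CPM, and for ANXA2, at 207 CPM. Control exosome 3 was high for UBAP1, at 58 CPM. HD exosome 2 was high for CHMP5, at 63.4 CPM, and HD exosome 5 was low for SMPD2, at 8.20 CPM. Control granule 5 was low for SMPD3, at 0.29 CPM.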

How the results depend on the processing

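In control cells, the count of genes called between granules and exosomes stayed within 1.5 times the 9227 given under the alternatives run, and 25 to 27 members were called with 1 library left out, against 26 with all. Of those 26 members, 24 were called in each of the 10 fits that left out 1 library, the exceptions being VPS36 and VPS4B. RLE and upper-quartile size factors gave a median log2 fold change over all genes tested of 0.09 and 0.11 in place of -0.02, and the members' median to -0.67 and -0.65. The GC offset gave -0.38 for VPS36, -0.62 for CHMP2B and 0.43 for CD81, each of the opposite sign. With the replicate block as well these were -0.37, -0.64 and 0.43. Both settings take out GC-linked differences by construction. CHMP2B was called higher with RLE or upper-quartile size factors, no count filter, DESeq2 or the replicate block alone. It was also called higher without control granule 1 or 3.

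In HD-induced cells, the 2918 genes called between granules and exosomes became 4666 with DESeq2, 6829 with voom, 4522 with the GC offset and 5758 without HD exosome 2 and HD granule 3. The 11 members became 21, 17 and 21 with voom, the GC offset and both libraries left out. With 1 library left out, 1464 to 5561 genes and 8 to 20 members were called, the highest of each without HD granule 3. CHMP3, CHMP5, IST1 and SMPD2 were lost in 1, 6, 8 and 7 of these 9 fits. CHMP5 was also lost with the block and the GC offset (0.92, adjusted p = 0.0944). With the block and the GC offset, 1394 genes were higher and 1675 lower in HD granules, against 1648 higher and 1270 lower as reported.

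Between HD and control exosomes, the 1 gene called became 185 without a count filter, 10 with DESeq2, 2 with voom, 4 with the block and GC offset, and 0 with protein-coding transcripts only, with HD exosome 4 kept, or without HD exosome 2 and HD granule 3. With 1 library left out it was 0 to 46, the highest without HD exosome 1. Between HD and control granules, 4 genes were called with DESeq2, 5 with voom and 0 to 1 with 1 library left out. For the difference of HD effects, the 2 genes became 21 with DESeq2, 0 with voom, 0 with the block and GC offset, and 0 to 20 with 1 library left out. No member was called in any of these 3 comparisons under any alternative run. The cause of these shifts was not tested.

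With the replicate number as a block, 9297 genes and 29 members were called in control cells, 3035 genes and 13 members in HD-induced cells, 0 genes between HD and control exosomes, 0 between HD and control granules and 0 for the difference of HD effects. HD exosomes held the shallowest libraries used, from 1.33 M reads on named genes, and what part depth had in these counts was not tested.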

Other observations

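Other genes of exosome biology were counted as a list of 74. In control cells, 15 of 73 tested were higher in granules (20.5%, against 30% of all genes tested) and 29 lower (39.7%, against 32.5%), with a median log2 fold change of -0.25. Genes for docking and fusion of vesicles leaned lower, at 9 lower and 0 higher of 12, as did annexins other than ANXA2, at 5 lower and 0 higher of 6. RAB11B, a GTPase of recycling endosomes, fell by 2.58 on the log2 scale, and YKT6, a SNARE that fuses membranes, fell by 1.91 (edgeR's quasi-likelihood test, adjusted p = 4.16e-05 and 3.45e-07). ANXA6 fell by 2.60, and LITAF, an ESCRT-linked endosomal protein, fell by 1.97 (edgeR, adjusted p = 1.88e-08 and 2.19e-07).

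The other classes had calls in both directions. Of 8 ceramide genes, 4 were higher in control granules and 2 lower, and of 10 genes for membrane cargo 4 were higher and 2 lower. Of 12 genes around syndecans and syntenin, 3 were higher and 3 lower, of 9 tetraspanins and partners tested 2 were higher and 1 lower, and of 16 ESCRT accessory genes 2 were higher and 7 lower. ITGB1, an integrin that pairs with tetraspanins, had a log2 fold change of 1.57, ASAH1, which breaks down ceramide, of 1.19, SGMS2, which makes sphingomyelin, of 1.29, and TFRC, the transferrin receptor, of 1.07. In HD-induced cells 3 of the 74 were higher in granules (ITGB1 at 1.76, SGMS2 at 1.17 and TFRC at 1.15) and 10 were lower, with ANXA6 at -2.04. These were 4.05% higher, against 10.2% of all genes tested, and 13.5% lower, against 7.85%. No gene of the list was called between HD-induced and control libraries. How this list stands against other genes was not tested.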
